A study of Mus musculus with 69 samples.

Results

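The 10 genes described here encode enzymes and subunits that write or remove methylation of histone H3 lysine 4 (H3K4): the methyltransferases Kmt2a, Kmt2b, Kmt2c and Kmt2d, the subunits Wdr5, Ash2l, Paxip1 and Kdm6a, and the demethylases Kdm1a and Kdm5b. They were chosen by name from the mRNA-seq count table and are 10 of its 16263 genes. All 10 passed the filter on low counts, so all are among the 14061 genes tested.

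The study asked whether acetylation of H3 lysine 27 is needed at enhancers, by replacing that lysine with arginine in the histone variant H3.3. WT cells were male J1 mouse embryonic stem cells (ESCs) of the 129S4/SvJae strain. The H3.3K27R lines Mut18 and Mut43 were made from J1 cells by CRISPR-Cas9 editing of both endogenous alleles of H3f3a and of H3f3b, and each line is 1 clone. All lines were grown on feeder cells and then passaged without feeders before harvest, and 2 libraries per line were made for mRNA-seq and 2 for ATAC-seq, so that 2 WT libraries were compared with 4 mutant libraries in each assay. WT was a single line, so the mutation and other differences between the WT line and the edited clones cannot be told apart.

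H3K4 carries a single methyl group over wide stretches of enhancers and 3 methyl groups at active promoters. KMT2C and KMT2D are the main enzymes that place the single methyl group at enhancers, and they work with PAXIP1 and with KDM6A, which also removes methylation from H3 lysine 27. KMT2A and KMT2B act mostly at promoters and CpG islands, WDR5 and ASH2L belong to a core shared by every KMT2 and SET1 complex, KDM1A (LSD1) removes single and double methylation at ESC enhancers, and KDM5B removes triple and double methylation.

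Upstream sequences of 3 of the genes are shown because they are the member that rose most, the member that fell, and the member with no ATAC-seq peak at its start site. Each is the 250 bases before the RefSeq start, 5′ to 3′ on the gene's strand in GRCm38.p6, and capitals mark matches to the motifs searched on both strands (GGGCGG for the GC box, the letters of the CCAAT box, CCGGAAG for the core of ETS factor sites, and CACGTG for the E-box). The 4 motifs differ in letters, but GC box matches may overlap one another. The stretches are chr5:25498784-25499033 on the minus strand for Kmt2c, chrX:18162325-18162574 on the plus strand for Kdm6a and chr1:134559928-134560177 on the plus strand for Kdm5b.
Kmt2c: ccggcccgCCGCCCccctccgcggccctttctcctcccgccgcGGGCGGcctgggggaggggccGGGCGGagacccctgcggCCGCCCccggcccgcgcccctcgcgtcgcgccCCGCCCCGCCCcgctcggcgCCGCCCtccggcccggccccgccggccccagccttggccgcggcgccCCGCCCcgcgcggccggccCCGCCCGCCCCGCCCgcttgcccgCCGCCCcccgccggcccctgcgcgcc
Kdm6a: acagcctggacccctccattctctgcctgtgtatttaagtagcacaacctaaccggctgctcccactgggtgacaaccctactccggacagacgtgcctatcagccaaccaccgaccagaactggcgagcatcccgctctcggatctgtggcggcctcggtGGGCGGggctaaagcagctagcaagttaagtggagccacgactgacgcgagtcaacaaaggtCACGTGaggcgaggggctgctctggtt
Kdm5b: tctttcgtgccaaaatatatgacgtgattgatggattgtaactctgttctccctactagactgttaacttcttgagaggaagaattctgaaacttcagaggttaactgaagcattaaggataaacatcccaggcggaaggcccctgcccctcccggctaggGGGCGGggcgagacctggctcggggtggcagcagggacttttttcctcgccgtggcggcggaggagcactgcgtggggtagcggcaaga
The RefSeq table held promoters for 8 of the 10 genes, Kmt2b and Ash2l being the others. The Kmt2c stretch was 91.6% G and C with 48 CpG dinucleotides and 12 GC box matches. Kdm6a had 15 CpG, 1 GC box match and 1 E-box match, and Kdm5b had 13 CpG and 1 GC box match. Over all 32851 promoters in the table the median was 6 CpG and 52.4% G and C. A GC box match was present in 7 of the 8 member promoters, against 32.7% of all promoters. A CCAAT box was present in 1 of the 8, that of Kdm1a, against 33.8% of all promoters, an E-box in 1 of the 8 against 6.02%, and an ETS core in 0 of the 8 against 6.91%.

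The libraries held 14992756 to 15143998 counts each. Of 8 ESC markers, 7 rose and 1, Pou5f1, fell in mutant cells, where 23.5% of all genes rose and 24.5% fell. The log2 fold change of Pou5f1 was -0.27, and that of Zfp42, which rose most, was 0.72. The summed level of the 8 was 2889 and 3012 CPM in WT and 3343 to 3531 CPM in mutant cells, and it does not describe every marker. CPM are counts scaled to a library size of 1000000 after TMM, as described below. The summed level of 8 fibroblast markers, genes that feeder cells express, was 292 and 207 CPM in WT and 131 to 175 CPM in mutant cells. In all, 6 of the 7 tested fell, where 24.5% of all genes fell. Of these, 4 fell by over 2-fold, where 8.93% of all genes moved that far in either direction. None of the 8 was at 0 in every library, Lum having no count in 3 libraries. This marker level moved with genotype, and its part in the results below was not tested. Without WT replicate 1, the library with the highest fibroblast marker level, member log2 fold changes ran from -0.17 (Kdm6a) to 0.68 (Kmt2c). WT replicate 2, at 207 CPM, was still above every mutant library. Leaving out replicate 1 therefore cannot separate this marker level from genotype. The edited gene H3f3a was lower in mutant cells (log2 fold change -0.23 ± 0.043, SE) and H3f3b did not pass the test (0.031 ± 0.050), although it was 0.12 higher in Mut43 than in WT (edgeR adjusted p = 0.0162) and 0.065 lower in Mut18, which did not pass. H3f3b lies on chromosome 11, whose genes had a median log2 fold change of 0.39. Counts do not show the changed codon. In bulk samples, fewer cells of a type and less RNA per cell cannot be told apart.

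In mutant cells, 5 of the 10 genes rose, 1 fell and 4 did not pass the test. Kmt2c, Ash2l, Kdm5b, Kmt2b and Kdm1a rose, by log2 fold changes of 0.65 down to 0.23, and Kdm6a fell by 0.21. Genes were tested with edgeR's quasi-likelihood F-test on the 2 WT and 4 mutant libraries. Unless another test or setting is named, the adjusted p of a gene is a Benjamini-Hochberg value over all 14061 genes, called under 0.05. The fit took libraries as independent and did not model the line. Its p-values, standard errors and intervals therefore describe spread among these libraries and not among separately derived lines. Among all genes tested 23.5% rose and 24.5% fell, and among the 3567 genes expressed at least as high as the lowest member 34.8% rose and 18.9% fell, so moves of this kind were common at these levels and the members' counts cannot be read as particular to them. The median log2 fold change of the 10 was 0.16 against -0.0041 over all genes, and the median size regardless of sign was 0.22 against 0.23. No member passed the study's thresholds of adjusted p and 2-fold together, which 8.93% of all genes passed in the edgeR fit used here. The study's own count of genes at these thresholds was smaller than the 1255 called here, and the reason was not tested. Every share of all genes given here depends on the fit used here. The 95% confidence interval of the fold change lay within 2-fold in either direction for 10 of the 10 members, against 79.2% of all genes. Interval width depends on the counts, and all genes include many below the lowest member. The medians and the shares for 2-fold were not computed for genes at the members' levels. They thus cannot show the members as steadier than such genes.

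**Figure D1:**
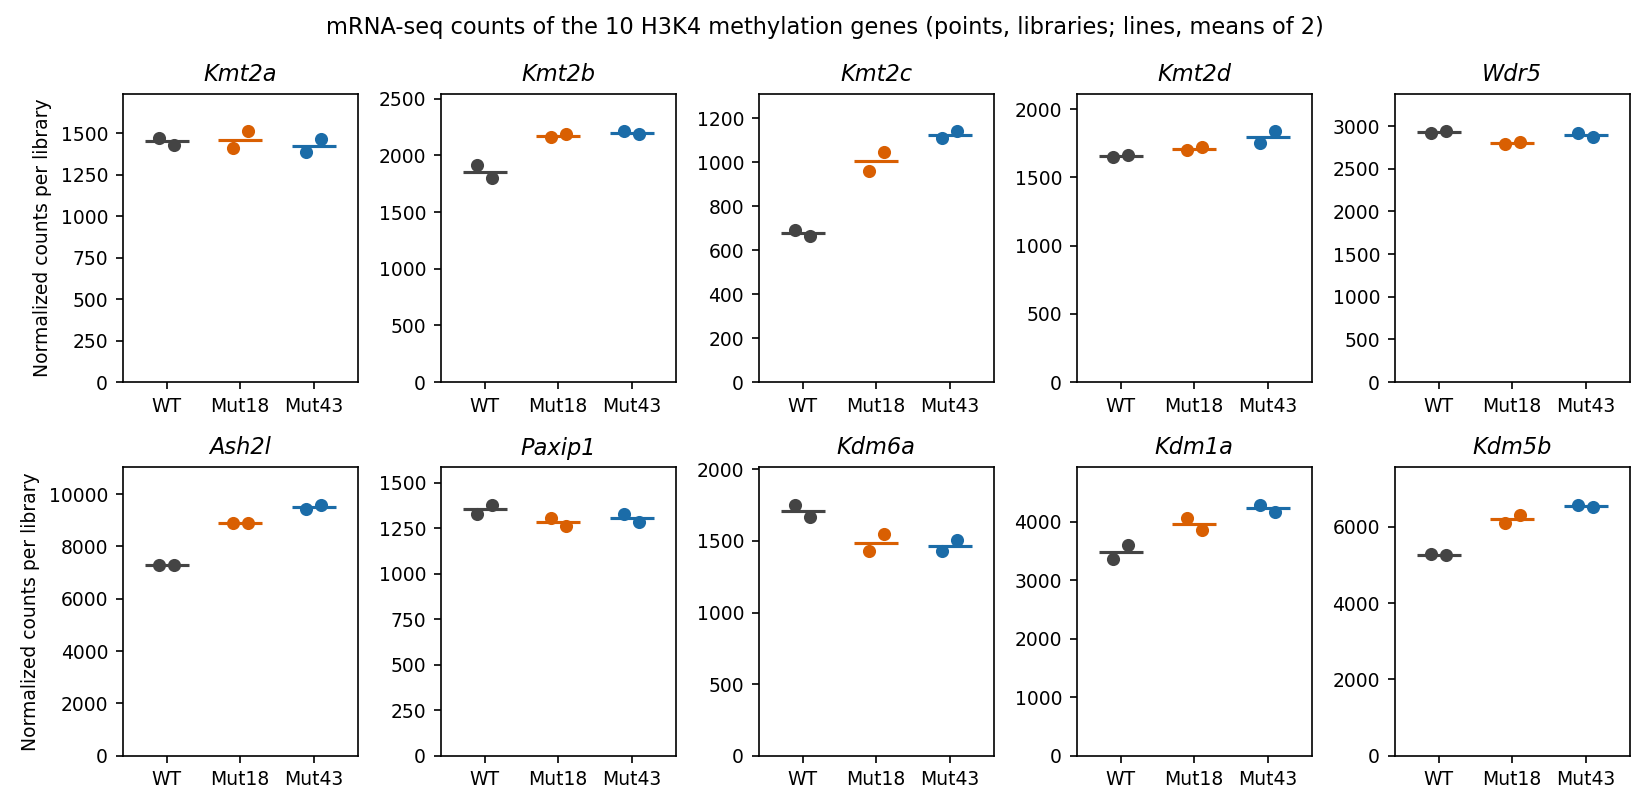
Normalized mRNA-seq counts of the 10 genes in each library (y axis, linear from 0; x axis, cell line; points are libraries and lines the mean of 2). Kmt2c lay between 962 and 1142 in the 4 mutant libraries and at 694 and 665 in WT, while Kmt2a overlapped between WT and mutant cells.

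Among the enzymes of the enhancer branch, Kmt2c had the largest fold change of the 10 genes and its partner enzyme Kmt2d did not pass the test. Kmt2c (ENSMUSG00000038056, chr5:25271798-25498783, minus strand) gave normalized counts of 694 and 665 (WT), 962 and 1047 (Mut18), and 1110 and 1142 (Mut43). All 4 mutant libraries were above both WT libraries, with the Mut43 libraries highest. The log2 fold change of mutant against WT was 0.65 ± 0.064 (SE, 95% interval 0.51 to 0.78, edgeR adjusted p = 5.78e-08), a 1.57-fold rise of the mean from 679 ± 21.0 (SD, n = 2) to 1065 ± 79.2 (SD, n = 4). Kmt2d (ENSMUSG00000048154, chr15:98831669-98871204, minus strand) gave normalized counts of 1648 and 1662 (WT), 1697 and 1724 (Mut18), and 1751 and 1839 (Mut43). Its mutant libraries were also all above WT, but the log2 fold change of 0.083 ± 0.044 (SE, 95% interval -0.010 to 0.17) did not pass the test (edgeR adjusted p = 0.133).

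Of the promoter enzymes, Kmt2b rose and Kmt2a did not pass the test. Kmt2b (ENSMUSG00000006307, chr7:30568858-30588726, minus strand) gave normalized counts of 1914 and 1798 (WT), 2160 and 2187 (Mut18), and 2214 and 2189 (Mut43). The 4 mutant libraries lay close together and above both WT libraries, with a log2 fold change of 0.24 ± 0.043 (SE, 95% interval 0.15 to 0.33, edgeR adjusted p = 0.000108). Kmt2a (ENSMUSG00000002028, chr9:44803355-44881296, minus strand) gave normalized counts of 1471 and 1431 (WT), 1409 and 1513 (Mut18), and 1387 and 1465 (Mut43). WT and mutant libraries overlapped, and the log2 fold change was -0.0076 ± 0.046 (SE, 95% interval -0.10 to 0.089, edgeR adjusted p = 0.907).

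Of the core subunits, Ash2l rose and Wdr5 did not pass the test. Ash2l (ENSMUSG00000031575, chr8:25815996-25847694, minus strand) gave normalized counts of 7277 and 7281 (WT), 8912 and 8882 (Mut18), and 9429 and 9600 (Mut43). The WT libraries were nearly equal and every mutant library was above them, with a log2 fold change of 0.34 ± 0.040 (SE, 95% interval 0.25 to 0.42, edgeR adjusted p = 7.04e-07). Wdr5 (ENSMUSG00000026917, chr2:27515157-27536535, plus strand), the subunit that joins the enzyme to the core, gave normalized counts of 2924 and 2940 (WT), 2789 and 2813 (Mut18), and 2916 and 2874 (Mut43). Its mutant libraries were below WT by little, with a log2 fold change of -0.042 ± 0.040 (SE, 95% interval -0.12 to 0.041, edgeR adjusted p = 0.401).

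Kdm6a and Paxip1, whose products are found with KMT2C and KMT2D, were lower in all 4 mutant libraries than in WT, and Kdm6a passed the test while Paxip1 did not. Kdm6a (ENSMUSG00000037369, chrX:18162575-18279936, plus strand) gave normalized counts of 1754 and 1664 (WT), 1428 and 1550 (Mut18), and 1427 and 1505 (Mut43). It fell by 0.21 on the log2 scale ± 0.046 (SE, 95% interval -0.31 to -0.11, edgeR adjusted p = 0.000845). The 508 tested genes of chromosome X had a median log2 fold change of -0.14, and the part of the chromosome in the value of Kdm6a was not tested. Paxip1 (ENSMUSG00000002221, chr5:27740080-27791691, minus strand), an adaptor of the same complexes, gave normalized counts of 1330 and 1379 (WT), 1304 and 1262 (Mut18), and 1327 and 1284 (Mut43). Its highest mutant library lay just under the lower WT library, with a log2 fold change of -0.066 ± 0.044 (SE, 95% interval -0.16 to 0.027, edgeR adjusted p = 0.234). Ncoa6 and Pagr1a, the subunits of these complexes among the other pathway genes, named after their values were seen, overlapped between WT and mutant cells. Normalized counts of Ncoa6 were 757 and 818 in WT and 736 to 774 in mutant cells, and those of Pagr1a 501 and 541 against 472 to 557.

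Both demethylases rose. Kdm1a (ENSMUSG00000036940, chr4:136550540-136602723, minus strand) gave normalized counts of 3354 and 3601 (WT), 4059 and 3852 (Mut18), and 4289 and 4169 (Mut43). The groups did not overlap, although the WT libraries differed from each other by about as much as the lower mutant library differed from WT. Its log2 fold change was 0.23 ± 0.046 (SE, 95% interval 0.14 to 0.33, edgeR adjusted p = 0.000276). Kdm5b (ENSMUSG00000042207, chr1:134560171-134635285, plus strand) gave normalized counts of 5285 and 5251 (WT), 6094 and 6299 (Mut18), and 6581 and 6529 (Mut43). All mutant libraries were above WT, with a log2 fold change of 0.28 ± 0.040 (SE, 95% interval 0.19 to 0.36, edgeR adjusted p = 1.01e-05).

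Across the 10 genes, 6 had every mutant library above both WT libraries, 3 had every mutant library below and 1 overlapped, and 59.8% of all genes tested did not overlap in either direction. A test that the change exceeded 0.25 on the log2 scale (edgeR glmTreat) called Kmt2c and Ash2l higher and no member lower, 2 of 10, and it called 24.0% of all genes in either direction. The calls of Kmt2b, Kdm1a, Kdm5b and Kdm6a were thus of a difference from 0 and not of one larger than 0.25. In the annotation, 378 exonic bases of Kmt2a (2.27% of its exons) overlapped an antisense transcript and 274 of Kmt2c (1.35%) an unclassified transcript on the other strand. Whether the libraries were stranded is not given in the sources used here, so reads in those stretches cannot be told apart.

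The fold changes had the same sign in each clone for every gene but Kmt2a, though the clones share the WT libraries and are not separate evidence. Against WT, Kmt2c rose by 0.56 in Mut18 and 0.73 in Mut43 on the log2 scale, Ash2l by 0.29 and 0.39, Kdm5b by 0.23 and 0.32, Kmt2b by 0.23 and 0.25 and Kdm1a by 0.19 and 0.28. Kdm6a fell by 0.20 in Mut18 and by 0.22 in Mut43. In both clones 5 members rose and 1 fell at an adjusted p under 0.05, where 41.3% of all genes passed in Mut18 and 46.8% in Mut43. Without WT replicate 1, or without Mut18 replicate 1, 4 members passed in Mut18. The direct test of Mut43 against Mut18 called 0 of the 10 members by edgeR, and 0.327% of all genes. At an unadjusted p under 0.05 it gave 3 members of the 10, where 8.52% of all genes passed, and DESeq2 also called 0. The largest of these differences was that of Kmt2c, 0.16 higher in Mut43 on the log2 scale (95% interval 0.041 to 0.29, edgeR adjusted p = 0.376), followed by Ash2l at 0.097 (0.013 to 0.18) and Kdm1a at 0.096 (0.0011 to 0.19).

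**Figure D2:**
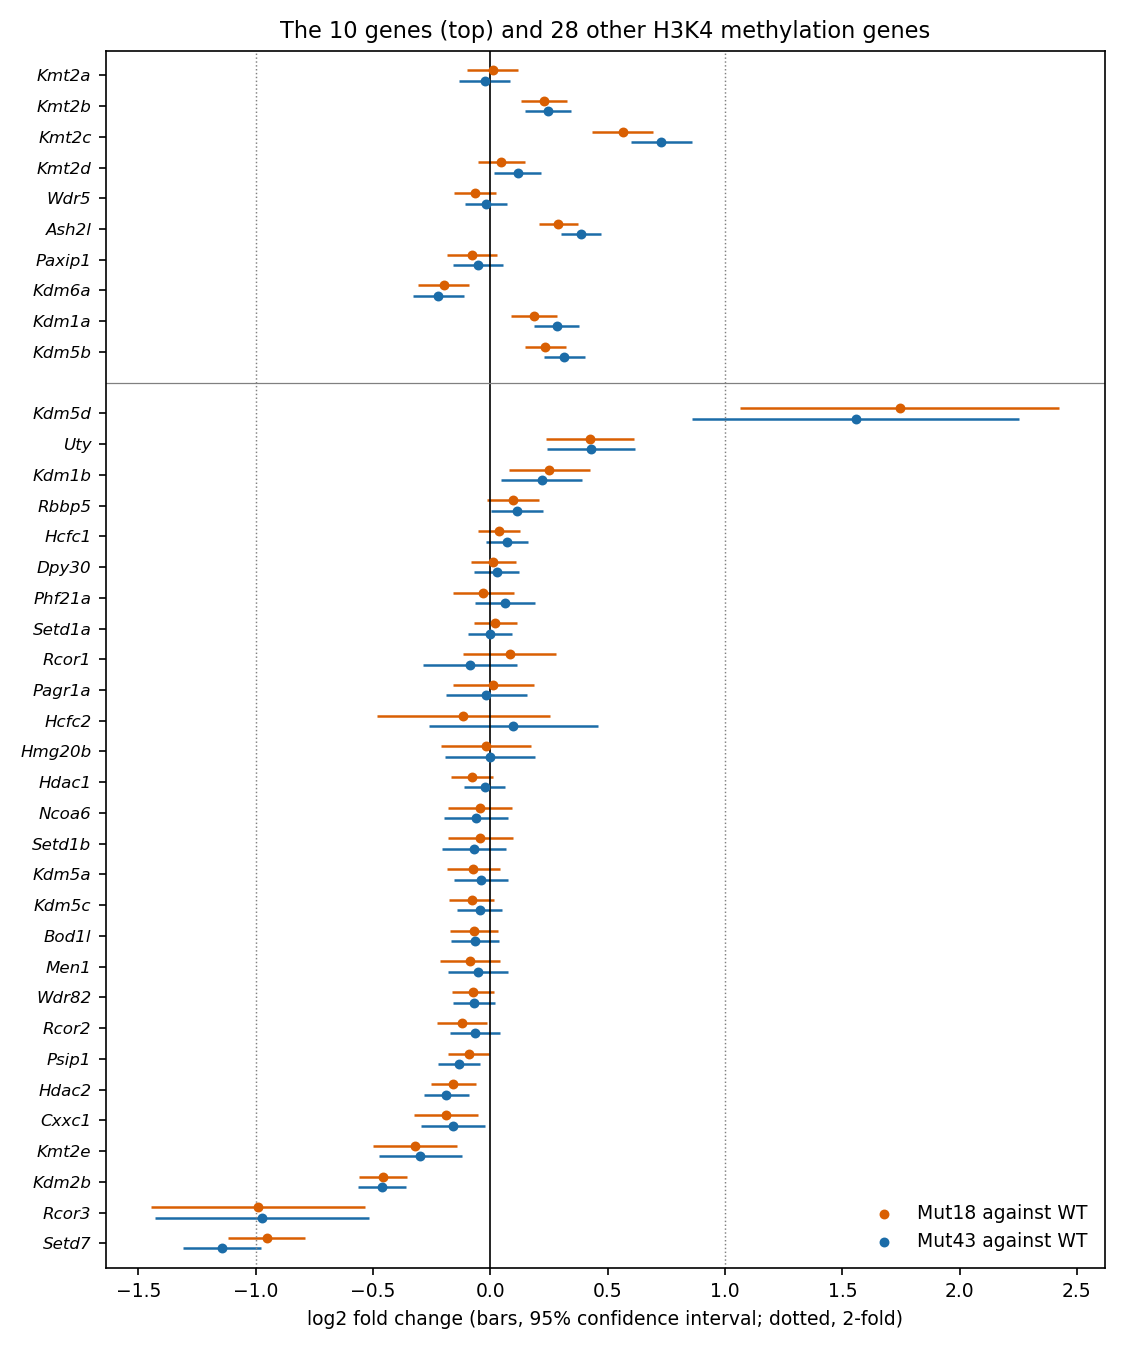
log2 fold change (x axis) of each clone against WT, for the 10 genes above the line and 28 other genes of H3K4 methylation below it; points are edgeR estimates, bars their 95% confidence intervals and dotted lines 2-fold. The clones shared the WT libraries. Members lay between -0.22 and 0.73, and Kdm5d, Rcor3 and Setd7 had the estimates farthest from 0.

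To compare levels between genes, counts were turned into CPM per kb of exon, which corrects for length. In WT, Wdr5 (54.1 ± 0.211, SD, n = 2) and Ash2l (53.9 ± 0.023) had the highest levels, followed by Kdm1a (44.6 ± 2.24), Kdm5b (21.1 ± 0.0954), Kdm6a (13.5 ± 0.500), Kmt2b (12.8 ± 0.568) and Paxip1 (8.76 ± 0.225). The other enzymes of the KMT2 family were the lowest, with Kmt2a at 5.78 ± 0.114, Kmt2d at 5.51 ± 0.0334 and Kmt2c at 2.22 ± 0.0687. Ranges of the WT libraries overlapped between Kdm6a and Kmt2b and in no other pair of neighbours in this order, although Wdr5 and Ash2l differed by under 1 unit. In mutant cells Ash2l was highest (68.2 ± 2.69, SD, n = 4). The libraries of Wdr5 (52.6 ± 1.06) and Kdm1a (52.5 ± 2.38) then overlapped, as did those of Kmt2d (5.84 ± 0.205) and Kmt2a (5.75 ± 0.227). Kmt2c stayed lowest, at 3.49 ± 0.259. These levels depend on the exon length, here the union of all annotated exons of a gene, and the transcripts used in these cells were not measured.

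**Figure D3:**
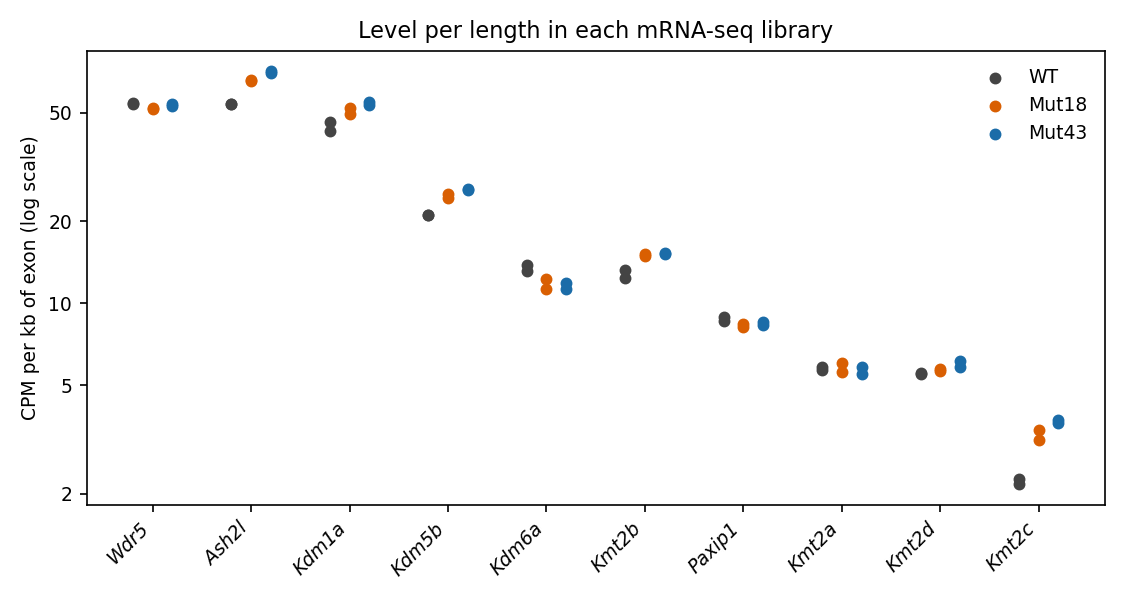
Level per length of each gene in each mRNA-seq library (y axis, CPM per kb of exon, log scale; x axis, genes in order of their WT mean; points are libraries, coloured by line). Wdr5 and Ash2l were level in WT near 54 and Ash2l alone was near 68 in mutant cells, while Kmt2c was lowest in all 6 libraries.

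Ratios of the level per length of partner genes within a library give their balance. Kmt2c over Kmt2d was 0.414 and 0.393 in the WT libraries and 0.557 to 0.623 in the mutant libraries. Kmt2a over Kmt2b was 0.443 and 0.458 in WT and 0.361 to 0.398 in mutant cells. Wdr5 over Ash2l was 1.00 and 1.01 in WT and 0.747 to 0.790 in mutant cells. WT and mutant libraries were thus apart in all 3 ratios, in the direction of more Kmt2c, Kmt2b and Ash2l. Kdm6a over its Y-linked homologue Uty was 3.88 and 4.83 in WT and 2.66 to 2.83 in mutant cells, and how reads shared by the homologues were counted is not given in the sources used here. Kdm5b over Kdm5c was 0.819 and 0.799 in WT and 0.977 to 1.08 in mutant cells, whereas Kdm1a over Kdm5b overlapped, at 2.03 and 2.19 in WT and 1.95 to 2.13 in mutant cells. Kdm6a over Kmt2d (2.53 and 2.38 in WT, 1.94 to 2.14 in mutant cells) and Paxip1 over Kmt2d (1.57 and 1.61, 1.35 to 1.49) were also apart. Of 8 ratios compared, 7 did not overlap. Several ratios use the same gene, 59.8% of all single genes tested did not overlap, and no such share was computed for ratios. The count of 7 thus cannot be read as particular to these pairs. Each of the 7 gave the smallest p that 2 WT and 4 mutant libraries allow (exact permutation test, two-sided, p = 0.133, Benjamini-Hochberg adjusted p = 0.152), so this test cannot go below 0.133 here.

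Over the 6 libraries, the log2 normalized counts most like those of Kmt2c among 11075 genes were those of Map4 and Plod1 (Pearson r 0.9996 and 0.9993), and 1132 genes had an r over 0.95. For Kdm6a, 187 genes had an r over 0.95. These r values describe 6 libraries that fall into WT and mutant groups.

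Among 28 other genes of H3K4 methylation, 3 rose, 7 fell and 18 did not pass the test, against the 23.5% and 24.5% of all genes. The count of 7 was 4 without WT replicate 2 and 5 without WT replicate 1. Setd7, a methyltransferase that places a single methyl group on H3K4 and also modifies other proteins, had 885 and 835 normalized counts in WT and 361 to 461 in mutant cells, a log2 fold change of -1.05 ± 0.074 (SE, edgeR adjusted p = 4.81e-10). Rcor3, a CoREST family partner of KDM1A, had 63.5 and 68.6 normalized counts in WT and 32.0 to 34.4 in mutant cells (-0.98 ± 0.18, SE, edgeR adjusted p = 0.000155). Setd7 was thus the only one of the 28 beyond 2-fold among those that fell. The other genes that fell had log2 fold changes from -0.46 to -0.11.

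The enzymes of the SET1 branch, which place most triple methylation, did not pass the test: Setd1a had 2274 normalized counts in both WT libraries and 2255 to 2309 in mutant cells, and Setd1b 748 and 737 against 691 to 725. The other core subunits did not pass it either, Rbbp5 at a log2 fold change of 0.10 (95% interval 0.0066 to 0.20, edgeR adjusted p = 0.0730) and Dpy30 at 0.020 (-0.066 to 0.11). Of the demethylases closest to the members, Kdm5a (-0.057 ± 0.049, SE) and Kdm5c (-0.062 ± 0.042) did not pass, while Kdm1b, the homologue of Kdm1a, rose from 338 and 349 normalized counts to 391 to 411 (log2 fold change 0.23 ± 0.072, SE, edgeR adjusted p = 0.0109). The Y-linked homologues rose. Uty had 528 and 403 normalized counts in WT and 611 to 640 in mutant cells (0.43 ± 0.082, SE). Kdm5d, a Y-linked demethylase of the KDM5 family, had 8.79 and 11.8 normalized counts in WT and 30.4 to 37.4 in mutant cells (1.65 ± 0.30, SE). The 7 tested genes of chromosome Y had a median log2 fold change of 1.29, and the part of the chromosome in these values was not tested.

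Accessibility at the start sites was read from the ATAC-seq peak lists, 1 per library, in which fold enrichment is the peak's height over the local background. A peak lay within 1000 bp of the start site in all 6 libraries for 8 of the 10 members, against 82.2% of tested genes, and for 22 of the 28 other pathway genes. Kmt2d had one in 5 libraries and none in WT replicate 2, and its nearest region in all 6 libraries was centred 995 bp upstream. Kdm5b had none in any library, and its nearest region open in all 6 was centred 3392 bp upstream. Kdm6a had the strongest start-site peak of the 10, with fold enrichments of 10.4 and 10.2 (WT), 10.6 and 11.1 (Mut18), and 11.3 and 10.2 (Mut43). These values overlapped between WT and mutant cells, where the mRNA of Kdm6a fell. For Kmt2c the start-site peak had a fold enrichment of 5.59 and 6.50 in WT and 5.58 to 5.97 in mutant cells, again overlapping. As a percentile of all peaks in its library, however, the Kmt2c peak was at 28.9 and 29.8 in WT and 16.9 to 23.5 in mutant cells, with no overlap, where its mRNA rose. Among members with a start-site peak in all 6 libraries, Paxip1 was the only one whose WT and mutant fold enrichments did not overlap, at 5.62 and 6.28 in WT and 6.64 to 7.39 in mutant cells. Libraries differed in median fold enrichment, 6.86 in WT replicate 1 and 7.46 to 7.80 in the others. By percentile within the library, Paxip1 (27.1 and 29.2 in WT, 32.4 to 49.2 in mutant cells) was higher in every mutant library. Kmt2c and Kdm1a (15.9 and 22.1 in WT, 8.1 to 14.5 in mutant cells) were lower in every mutant library. For Kdm1a, however, the strongest peak in WT replicate 2 was a different one, centred 530 bp into the gene. At the region centred 155 bp upstream, used in the other libraries, Kdm1a fold enrichments overlapped (5.17 and 5.18 in WT, 4.59 to 5.36 in mutant cells). The peak lists carry no read counts, so no test was made. The share of all start sites with WT and mutant values apart in this way was not computed. These cases thus cannot be read as particular to the members, and their relation to the mRNA was not tested.

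The upstream sequences printed above lay differently within these peaks. All 250 bases of Kdm6a were inside a peak in all 6 libraries, as were those of Wdr5 and Paxip1. Of the Kmt2c stretch, 94 bases were inside a peak in WT replicate 1 and 0 in the other 5 libraries, its peak region being centred 723 bp upstream of the start. None of the Kdm5b stretch was inside a peak in any library.

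**Figure D4:**
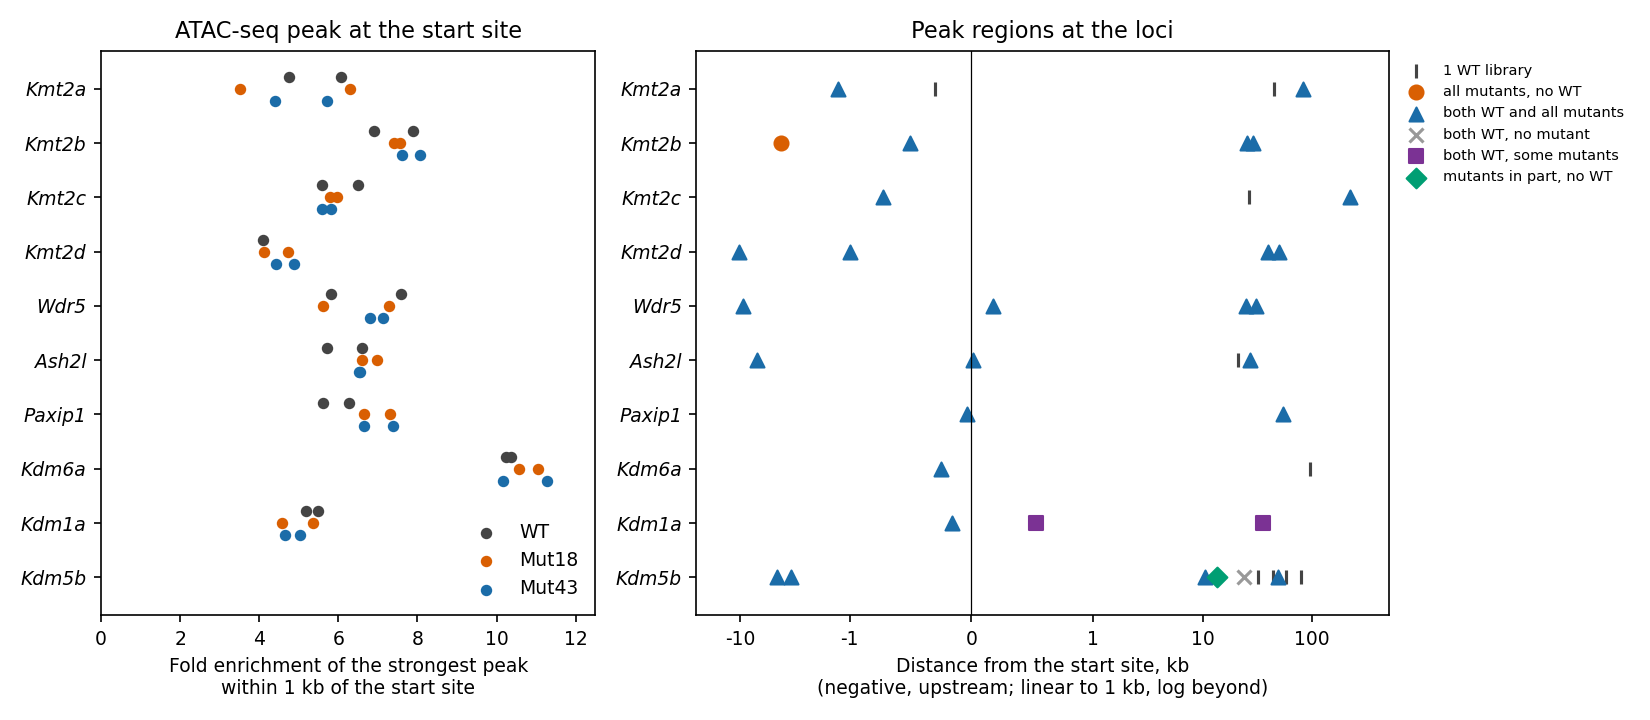
Left, fold enrichment of the strongest ATAC-seq peak within 1 kb of each start site (x axis) in each library (points, coloured by line); a gene without points had no peak. Right, centres of the 41 peak regions at the 10 loci by distance from the start site (x axis in kb, linear to 1 kb and logarithmic beyond), with symbols for the libraries that held a peak. Kdm6a lay between 10.2 and 11.3 in all libraries, and most regions were open in WT and in all mutant libraries.

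From 10 kb before to 10 kb after the 10 genes there were 41 regions with a peak in some library, and 29 of them were open in both WT libraries. All 4 mutant libraries also had a peak in 26 of the 29 (89.7%), against 78.7% over the genome. At Kmt2a, Kmt2b, Kmt2c, Kmt2d, Wdr5, Ash2l, Paxip1 and Kdm6a every region open in both WT libraries was open in all 4 mutant libraries. The 3 exceptions lay in Kdm1a and Kdm5b. In Kdm1a, regions 530 bp and 35679 bp into the gene had a peak in 1 of the 4 mutant libraries each. In Kdm5b, the region chr1:134583728-134583922 (mm10), in an intron 23654 bp after the start, had a fold enrichment of 6.15 and 7.04 in WT and no peak in any mutant library, while the mRNA of Kdm5b rose. Its sequence is shown because it was the only region at the 10 loci with a peak in both WT libraries and in no mutant library. It is given on the plus strand of GRCm38.p6, with capitals for the 158 bases inside the peaks of both WT libraries.
Kdm5b intron: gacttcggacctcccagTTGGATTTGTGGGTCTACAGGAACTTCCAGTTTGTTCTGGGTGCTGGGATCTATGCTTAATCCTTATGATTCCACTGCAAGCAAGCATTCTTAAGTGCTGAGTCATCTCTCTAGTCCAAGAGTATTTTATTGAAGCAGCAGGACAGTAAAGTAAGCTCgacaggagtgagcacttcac
Of this stretch 45.6% was G and C, it had 2 CpG dinucleotides, and 26.7% was masked as repeat in the reference. The converse pattern was seen at 1 region, chr7:30592906-30593068 (mm10), which overlaps an exon of the neighbouring gene Zbtb32 and is centred 4270 bp upstream of Kmt2b. It had a fold enrichment of 3.48 to 4.30 in the 4 mutant libraries and no peak in WT, and when every list was cut to its 63588 peaks of highest -log10 q, 3 of the 4 mutant libraries kept it, while both WT libraries kept the Kdm5b region. Of the remaining regions, 10 had a peak in 1 WT library, some of them also in up to 3 mutant libraries. In addition, 1 had a peak in 1 mutant library and in no WT library. No share over the genome was computed for peaks in both WT and no mutant libraries, or in all mutant and no WT libraries. The regions in Kdm5b and near Kmt2b thus cannot be read as particular to these loci. WT replicate 1 had the longest peak list, 78536 peaks over 33392097 bp, against 63588 to 69811 peaks in the other libraries, and how far list length sets these patterns was not tested.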

How the data were processed

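The mRNA-seq table holds whole-number read counts per gene, deposited by the authors without normalization. The ATAC-seq lists hold the authors' peaks for each library, with a deposited fold enrichment (a ratio over background) and a deposited −log10 q per peak. Paired-end reads were mapped to mm10 joined to a Drosophila genome. The submitters' processing notes name Bowtie2 2.3.4.2, STAR, SAMtools, DESeq2, MACS2 and deepTools 3.3.0 without roles. The counting program and gene annotation are not given in the sources used here. Samples were grouped by line from their titles, and all 6 count columns matched.

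Counts were scaled by TMM and tested in edgeR 4.0.16 (R 4.3.3) by the quasi-likelihood F-test with Benjamini-Hochberg adjustment, after filtering at a minimum count of 10. Mutant cells were compared with WT, and each clone with WT and with the other in a fit by line. Normalized counts are counts divided by relative library size after TMM, and CPM are counts scaled to a library size of 1000000 after TMM. Exon lengths and start sites came from GENCODE vM21 (GRCm38). Peaks that overlapped by at least 1 bp were merged over libraries into regions. The steps were tested on simulated data. Alternatives included other scaling, filters, tests (DESeq2 1.42.0, glmTreat) and leaving out each library. Totals of 14992756 to 15143998 counts gave members a standard error of 0.040 to 0.064 on the log2 scale. Replicates are described as biological duplicates. Same-line libraries differed by more than sampling noise (chi-square per gene 1.78 to 3.19), so none was counted as a repeat of another. Named genes were all members, fixed paralogues and core subunits, other pathway genes called with a log2 fold change over 0.5 in size, and for the members with the lowest p in each direction the 2 most correlated genes, which for Kdm6a are not reported here. The edited genes, Zbtb32, Ncoa6 and Pagr1a are named outside this rule, the last 3 after their values were seen. The markers Pou5f1, Zfp42 and Lum were also named after their values were seen. The members and lists were chosen with earlier results of these data known. ChIP-seq was not analysed here.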

Additional observations from a re-analysis of the deposited data

Results flagged for a closer look

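The edited gene H3f3b differed between the clones by the direct test of that difference, being 0.19 higher in Mut43 than in Mut18 on the log2 scale (SE 0.041, edgeR quasi-likelihood F-test, Benjamini-Hochberg adjusted p = 0.0402). Its normalized counts were 12378 and 12397 in the WT libraries, 11654 and 12026 in Mut18, and 13556 and 13386 in Mut43. None of the 10 members differed between the clones at this threshold.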

How the results depend on the processing

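The members' counts of 5 higher and 1 lower were the same under other scaling factors, other count filters, DESeq2, an adjusted p under 0.01, each clone alone and leaving out any 1 library. With glmTreat against a log2 change of 0.25 they were 2 higher and 0 lower. Over all alternatives, 160 of 170 values for single members kept direction and call, 4 lost the call (all under glmTreat) and 6 changed sign, all for Kmt2a, which was not called in any. Its log2 fold change was 0.017 with TMM factors computed without chromosome 11, 0.0031 without the filter on low counts and 0.014 for Mut18 alone, and ranged from -0.031 to 0.017 when 1 library was left out. The other pathway genes that fell numbered 7, but 11 with library size only, 3 with glmTreat and 4 to 7 when 1 library was left out; the causes were not tested beyond each setting's construction. All genes called numbered 6749, against 5342 with DESeq2 and 3379 with glmTreat. ATAC-seq counts of 8 start sites and 26 regions ranged over 7 to 9 and 20 to 27.

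Replicate numbers shared by the labels did not pair the libraries: deviations of same-numbered libraries correlated at -0.012 to 0.024 between lines. With the replicate block, 5 members rose and 1 fell, and 6604 genes in all were called. Arms of 2 WT libraries limit every interval, and peak lists without read counts allowed no test.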
